A study of Mus musculus with 6 samples.

Results

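The 9 genes C1qa, C1qb, C1qc, C3, Csf1r, Adgre1, Mrc1, Cd68 and Cd14, which mark resident macrophages or belong to the complement system, were followed in samples labelled as fetal mouse epidermis. The C1q genes and C3 belong to complement and the others mark phagocytes. All probes that the platform annotation assigns to these 9 genes were taken, which gave 12 of the 45281 probes on the array. Of these, 11 passed the detection filter and entered the test, among 18358 probes that did, and each of the 9 genes kept at least 1 probe. The arrays hold RNA of back-skin epidermis from C57BL6 embryos at stage E17.5 (embryonic day), 3 of them wild type and 3 from a Harlequin Ichthyosis mutant, a model of an inherited skin barrier disease. The epidermis had been separated from the dermis with 5 mM EDTA, the samples of a group are called biological replicates, and the embryos received no treatment that the labels record. Which gene or allele is mutated, and whether embryos were littermates, is not stated in the labels. Replicates 1 and 2 of each group carry the title prefix bo20 and replicate 3 of each carries bo12, so that bo12 holds 1 array per group.

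C1q is the recognition unit of the classical complement pathway. It is assembled from A, B and C chains, binds immune complexes and dying cells, and is made mainly by macrophages and related phagocytes rather than by liver. C3 is the central component on which all complement pathways converge, and it is also made by epithelial cells and fibroblasts. The CSF1 receptor, encoded by Csf1r, sustains macrophages and Langerhans cells, the phagocytes that settle in fetal epidermis before birth. Adgre1 encodes the mouse macrophage antigen F4/80, Mrc1 the mannose receptor, Cd68 a lysosomal membrane glycoprotein of phagocytes, and Cd14 the co-receptor for bacterial lipopolysaccharide.

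C1qb, C1qc and C1qa lie next to each other, in this order, on mouse chromosome 4, with no other annotated gene between them. RefSeq start-site windows of 300 bases (GRCm38.p6, 250 before and 50 after the annotated start) were used for 5 of the 9 genes, C1qb, C1qc, C3, Mrc1 and Cd68. C1qa and Adgre1 had no entry. Csf1r and Cd14 were left out of the search, so the counts below do not cover them. The windows of C1qb and C1qc are shown because these neighbours had the most similar patterns within the C1q trio, and that of C3 because its difference was the widest. All 3 are on the minus strand and are printed 5′ to 3′ along it. Capitals mark GAGGAA, the core letters of the box bound by the myeloid factor PU.1 (TTCCTC on the opposite strand), and TTGCNNAA, a C/EBP-type sequence. Both strands were searched, and no marked matches overlap.
C1qb, chr4:136886151-136886450: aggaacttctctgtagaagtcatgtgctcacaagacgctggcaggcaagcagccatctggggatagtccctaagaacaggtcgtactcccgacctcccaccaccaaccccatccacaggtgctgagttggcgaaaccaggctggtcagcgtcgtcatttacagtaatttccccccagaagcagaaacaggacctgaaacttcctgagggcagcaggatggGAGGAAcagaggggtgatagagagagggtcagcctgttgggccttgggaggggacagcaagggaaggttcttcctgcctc
C1qc, chr4:136892865-136893164: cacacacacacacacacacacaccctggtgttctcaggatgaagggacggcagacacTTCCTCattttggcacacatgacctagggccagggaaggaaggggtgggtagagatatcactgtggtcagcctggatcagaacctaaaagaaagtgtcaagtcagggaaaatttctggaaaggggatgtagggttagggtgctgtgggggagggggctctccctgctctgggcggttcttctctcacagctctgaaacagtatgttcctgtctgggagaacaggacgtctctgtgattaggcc
C3, chr17:57228087-57228386: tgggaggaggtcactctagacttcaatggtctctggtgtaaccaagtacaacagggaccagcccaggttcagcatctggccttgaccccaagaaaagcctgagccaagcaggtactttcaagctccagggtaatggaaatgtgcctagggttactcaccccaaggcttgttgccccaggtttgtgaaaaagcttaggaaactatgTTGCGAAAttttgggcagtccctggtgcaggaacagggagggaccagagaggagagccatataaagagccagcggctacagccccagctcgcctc
GAGGAA occurred in 4 of the 5 windows, those of C1qb, C1qc, Mrc1 and Cd68, and in 28.3% of all 32851 windows of this length. TTGCNNAA occurred in C3 and Cd68 and in 10.8% of all windows. TGANTCA, the AP-1 sequence, occurred in Cd68 alone of the 5 and in 7.81% of all. A match describes letters in the window and shows no binding.

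In raw bead intensity, before any normalization, every mutant array read above every wild-type array for 11 of the 12 probes, but mutant arrays were brighter in general. The same separation held for 35.7% of the kept probes, and the 75th percentile of raw intensity was 105.6 to 155.2 in wild-type arrays and 151.8 to 183.2 in mutant arrays. Values below are in the order of replicates 1 to 3. For C1qb, wild type read 424.5, 605.7 and 568.5, and mutants 1022.7, 1612.2 and 1126.6. Mrc1 read 471.7, 753.9 and 660.6 against 1189.4, 1146.1 and 1131.7. These probes stood well above the background, the median raw intensity of probes with a detection p near 0.5, which was 77.6 to 92.1. Cd14 lay close to it, at 102.9, 107.4 and 90.9 in wild type and 129.9, 146.4 and 139.5 in mutants. The exception to the separation was the brightest of the Adgre1 probes (ILMN_1216880), with 143.1, 204.5 and 80.5 against 355.7, 520.6 and 135.6. All 6 arrays detected each of C1qa, C1qb, C1qc, C3, Csf1r, Mrc1, Cd68 and Cd14 at a detection p under 0.05, with either probe in the case of Csf1r. The probe of Adgre1 that was not kept (ILMN_2756353) was detected on 0 wild-type arrays and on mutant arrays 1 and 2, at 103.6 and 132.4.

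**Figure D1:**
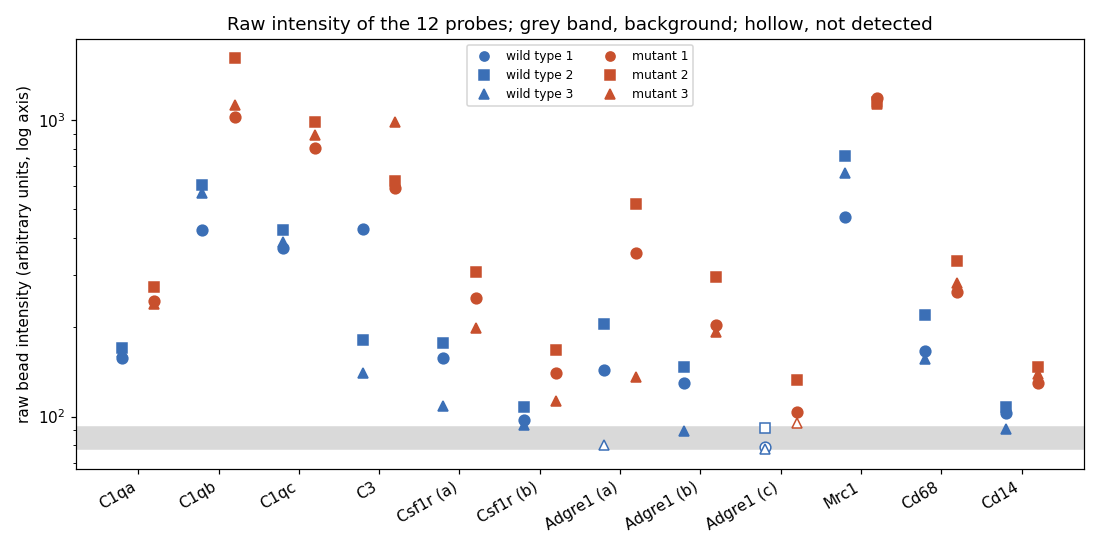
Raw bead intensity (log axis, arbitrary units) of the 12 probes on each of 6 arrays, wild type in blue and mutant in red, with hollow symbols where the detection p was 0.05 or more. The grey band spans the 6 arrays' background of 77.6 to 92.1; letters a to c separate probes of the same gene, and mutant symbols lie above wild-type symbols for 11 of 12 probes.

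The tests therefore used log2 intensities that were background-corrected and quantile-normalized, which gives every array the same distribution. On this scale all 11 kept probes were higher on average in mutants, by 0.072 to 1.29 log2 units (median 0.38), while 46.1% of all probes tested had a difference above 0 and their median was -0.039. None of the 11 passed limma's test at an adjusted p of 0.05, with adjusted p between 0.791 and 0.942. The background is the same, since 0% of the 18358 probes passed, where 1077 had an unadjusted p under 0.05 and 0 of those were among the 11. In C1qc alone did the mutant values all lie above the wild-type values, 1 of 11 probes, against 5.63% of all probes tested. The 11 probes were read on the same 6 arrays, and some share a gene, so their shared sign is not 11 separate observations. In a bulk peel, more cells of a type and more RNA per cell cannot be told apart.

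Wild-type array 3 stood apart in the series as a whole, with a Pearson's r across kept probes of 0.836 to 0.891 with the others, so results are also given without it. Without that array 0 of the 11 probes passed, where 0.275% of 17808 did. All 11 were again above 0, from 0.20 to 1.00 (median 0.40), and 51% of all probes were. C1qb, C1qc and Mrc1 then had separated groups, 3 of 11 against 14.6% of probes higher and separated. The other arrays moved these summaries too. Without wild-type array 2 the median was 0.29, with 10 of 11 above 0 against 44% of probes, and 1 was separated against 12.2%. Without wild-type array 1 the median was 0.60, and 5 were separated against 8.04%. Without mutant array 1, 2 or 3 the medians were 0.42, 0.36 and 0.49, with 4, 1 and 3 separated against 7.27%, 7.62% and 12.1%. Of the 11 probes, 5 had separated groups in the authors' deposited table, against 7.04% of all probes.

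Among the complement genes, C1qb and C1qc had log2 differences of 0.58 and 0.55. C1qb, the B chain, read 9.25, 8.81 and 9.59 in wild type and 9.48, 10.06 and 9.86 in mutants. Mutant array 1 lay below wild-type array 3, and the other mutant values exceeded all wild-type values. The fold was 1.50 (95% interval 0.947 to 2.36, limma adjusted p = 0.791), and 1.69 (1.14 to 2.50, adjusted p = 0.374) without wild-type array 3. The log2 difference of 0.58 was 0.38 (adjusted p = 0.526) without wild-type array 2. C1qc, the C chain, read 9.01, 8.21 and 8.99 in wild type and 9.09, 9.29 and 9.50 in mutants. These groups did not overlap, but mutant array 1 exceeded wild-type array 1 by little, and wild-type array 2 set the width of its group. The fold was 1.47 (0.923 to 2.33, adjusted p = 0.791), and 1.59 (1.02 to 2.46, adjusted p = 0.484) without wild-type array 3. Leaving out wild-type array 2 took the log2 difference from 0.55 to 0.29 (adjusted p = 0.563).

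C1qa, the A chain of the same molecule, gave a smaller value. It read 7.17, 6.39 and 7.44 in wild type and 6.98, 7.05 and 7.20 in mutants. The mutant arrays fell inside the wild-type range, which wild-type array 2 opened at its lower end. The log2 difference was 0.072 (SE 0.30, interval -0.64 to 0.79, adjusted p = 0.942), and it turned to -0.23 without wild-type array 2. The level of C1q chains was thus lowest in wild-type array 2 for all 3 genes.

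C3 showed the widest difference of the 9 genes, with the widest spread among the wild-type arrays. It read 9.28, 6.55 and 7.07 in wild type and 8.58, 8.55 and 9.65 in mutants, that is 7.63 ± 1.45 and 8.93 ± 0.63 (SD, n = 3 each). Wild-type array 1 alone exceeded mutant arrays 1 and 2, while the other wild-type values lay well below all mutants. The log2 difference was 1.29 (SE 0.71, adjusted p = 0.791), with an interval of -0.38 to 2.97, and in size it ranked 313 among the 18358 probes. With an array left out it ran from 0.75 (without wild-type array 2) to 2.14 (without wild-type array 1), and it was 1.00 without wild-type array 3 and 0.45 with array weights.

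**Figure D2:**
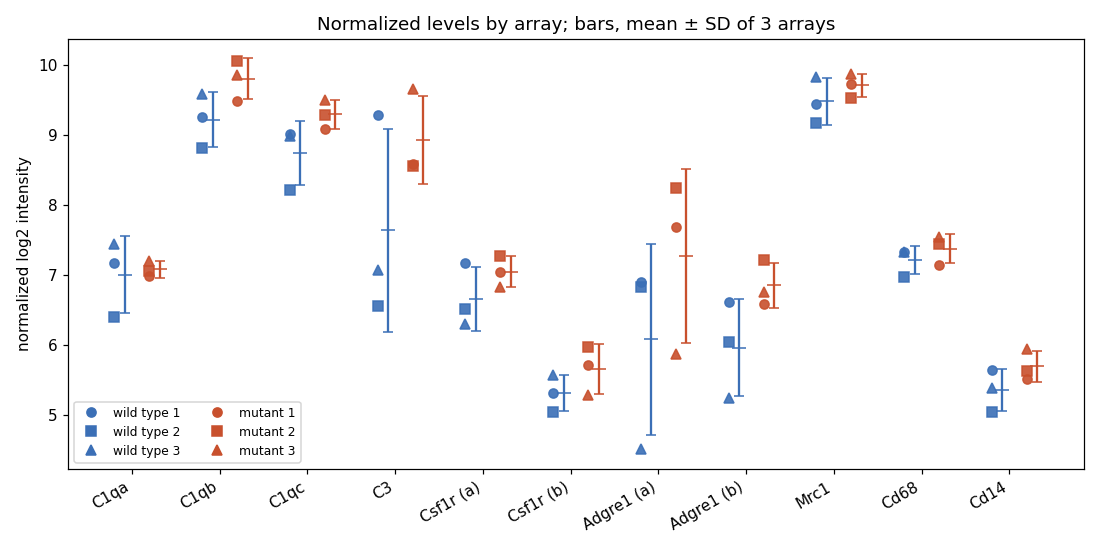
Normalized log2 intensity of the 11 kept probes on each array, with the mean and SD of 3 arrays beside each group. C1qc is the only probe whose groups do not overlap, and C3 and the brighter Adgre1 probe have the widest spread.

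The phagocyte genes gave intervals that all included 0. Adgre1 had the widest differences of these, and its kept probes differed in their pattern over the arrays. The brighter probe read 6.90, 6.83 and 4.51 in wild type and 7.68, 8.24 and 5.87 in mutants. Both arrays with the prefix bo12 were the low ones of their groups, and wild-type array 3 did not detect the probe. Its log2 difference was 1.18 (SE 0.82, adjusted p = 0.791), and it ran from 0.39 without wild-type array 3 to 1.87 without mutant array 3. The other kept probe (ILMN_2847787) read 6.60, 6.04 and 5.23 against 6.58, 7.21 and 6.75. Here mutant array 3 was not low, and mutant array 1 lay just below wild-type array 1. This probe's difference was 0.89 (SE 0.38, adjusted p = 0.791), the lowest unadjusted p of the 11 at 0.0508, and it ran from 0.53 without wild-type array 3 to 1.25 without wild-type array 1.

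Csf1r had a brighter probe (ILMN_2710819) at 7.17, 6.50 and 6.30 in wild type and 7.04, 7.27 and 6.82 in mutants. Wild-type array 1 was as high as the mutants. The difference was 0.38 (SE 0.29, adjusted p = 0.791), and it ran from 0.20 without wild-type array 3 to 0.65 without wild-type array 1. The dimmer probe (ILMN_1230485) read 5.32, 5.04 and 5.57 against 5.71, 5.97 and 5.28. Mutant array 3 was the low one here. This probe gave 0.34 (SE 0.26, adjusted p = 0.791), and 0.50 without wild-type array 3, so leaving out that array moved the probes of this gene in opposite directions. With an array left out the dimmer probe ran from 0.18 to 0.52, and it gave 0.039 in the authors' deposited table.

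Mrc1 read 9.43, 9.17 and 9.82 in wild type and 9.72, 9.52 and 9.86 in mutants. Wild-type array 3 was nearly as high as the highest mutant. The difference was 0.23 (SE 0.24, adjusted p = 0.797), and 0.40 (adjusted p = 0.571) without that array but 0.075 (adjusted p = 0.89) without wild-type array 2. Cd68 read 7.33, 6.97 and 7.32 against 7.14, 7.44 and 7.53. Its groups overlapped closely, with a fold of 1.12 (0.778 to 1.61, adjusted p = 0.828). Its log2 difference of 0.16 ran from 0.043 to 0.28 with an array left out. Cd14 read 5.64, 5.04 and 5.39 against 5.52, 5.62 and 5.95. Mutant arrays 1 and 2 lay below wild-type array 1, and the fold was 1.27 (0.85 to 1.89, adjusted p = 0.791). Its log2 difference of 0.34 ran from 0.18 to 0.51 with an array left out, and was 0.028 in the authors' deposited table.

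Within title prefixes, 9 of the 11 probes were above 0 in both, against 24.9% of all probes tested. In bo20, with 2 arrays per group, differences ran from 0.14 for Cd68 to 1.09 for the brighter Adgre1 probe, and all were above 0. C1qb stood at 0.74 in bo20 and 0.27 in bo12, and C1qc at 0.58 and 0.51. C3 went the other way in size, at 0.65 in bo20 and 2.59 in bo12. The values below 0 in bo12 were those of C1qa (-0.24) and the dimmer Csf1r probe (-0.29), each a difference of 1 array from 1. For none of the 11 probes did limma's interaction term between group and prefix pass (adjusted p between 0.142 and 0.944), although 10.1% of all probes did. That term assumes that the bo12 arrays vary like the bo20 arrays, so a single array that stands apart counts in it.

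**Figure D3:**
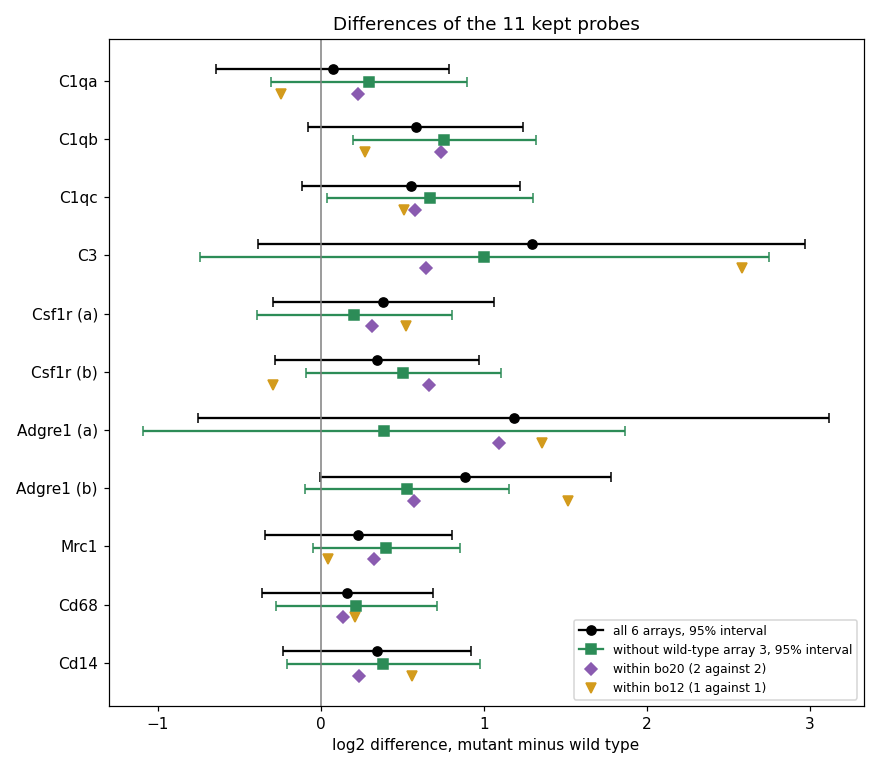
Log2 differences, mutant minus wild type, of the 11 kept probes: black, all 6 arrays; green, without wild-type array 3, each with its 95% interval; purple and yellow, within bo20 and bo12 without intervals. All black intervals include 0, and without wild-type array 3 those of C1qb and C1qc do not.

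Patterns over the 6 arrays were compared by the root mean square difference of log2 values, each centred on its own mean, as a description. C1qb was nearest to C1qc among the 9 genes (0.177), and C1qc to Cd14 (0.166). Cd68 and Cd14 were nearest to each other (0.141), as were C1qa and Mrc1 (0.191). C3 (0.829) and Adgre1 (0.953) had no close match among the others. Outside the 9, the gene nearest to C1qb was H2-DMa, which encodes a chain of the class II peptide-loading factor (0.0645), and the nearest to C1qc was Rarres2, which encodes the chemoattractant chemerin (0.109). C3 was nearest to Hp, the acute-phase protein haptoglobin (0.499), at 8.08, 6.11 and 7.49 in wild type and 8.42, 8.14 and 8.93 in mutants. In Hp as in C3, wild-type array 2 was the lowest and mutant array 3 the highest. For Csf1r the nearest gene was S100a4 (0.0884), for Adgre1 the muscle receptor gene Chrna1 (0.316), for Mrc1 C1qtnf2 (0.0659), for Cd68 the ATP synthase gene Atp5h (0.0504), for Cd14 the lipoprotein receptor gene Scarb1 (0.0955) and for C1qa Rtl8b (0.0455). Among 11354 genes close matches over 6 arrays are easily found, and those of genes with a small spread need little.

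The rest of the complement system was read from lists of genes, each represented by its brightest kept probe. Of 11354 kept genes 0 passed limma's adjusted p of 0.05, which holds for every list below, and 44.4% were above 0 (median -0.056). Groups did not overlap for 5.96% of them higher in mutants and 8.24% lower. Of 21 other cascade components, 20 were on the array and 10 were kept, 6 above 0 and 4 below, with a median of 0.28 and 3 separated, all higher. These were C1s1, a protease of the C1 complex, Cfp, which encodes properdin, the stabiliser of the alternative convertase, and Masp1, a lectin-pathway protease. Cfp read 10.01, 9.86 and 10.60 in wild type and 10.62, 10.64 and 10.90 in mutants. The gap between the groups was narrow, and the log2 difference was 0.56 (SE 0.26, adjusted p = 0.791). C1s1 differed by 0.44 (SE 0.20, adjusted p = 0.791), and by 0.018 in the authors' deposited table. All 3 mutant arrays but no wild-type array detected Masp1. The detection filter thus kept Masp1 through the mutant arrays alone, so its place among the separated genes depends partly on the filter. Masp1 was at least 1.07-fold higher in mutants on this scale, while its difference in the authors' deposited table was -0.12. C1ra, Cfb, C6, C7, C8a, Mbl1, Mbl2 and Fcnb were detected on no array.

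Complement regulators, which restrain the cascade on host cells and in fluid, had 8 kept genes of 14, 4 above 0 and 4 below (median 0.0053). Cd55, the decay-accelerating factor, differed by 0.99 (SE 0.62, adjusted p = 0.791). With wild-type array 3 left out that value was 0.22. Cd59b, an inhibitor of the terminal complex, differed by -0.13 (SE 0.20), and Vtn, which encodes vitronectin, by 0.18 (SE 0.25). Of 11 receptors of complement fragments and C1q, 3 were kept, 2 above 0 and 1 below. They were Calr, the chaperone calreticulin that also binds C1q (0.36, SE 0.32), Cd93 (0.086, SE 0.35) and Lrp1, an endocytic receptor (-0.40, SE 0.30). The probes of the anaphylatoxin receptors C3ar1, C5ar1 and C5ar2, of the integrin chain Itgam and of Vsig4 were detected on no array.

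Ligands and signalling partners of the CSF1 receptor had 14 kept genes of 17, 7 above 0 and 7 below (median -0.013), with 3 separated higher and 2 lower. The receptor's ligands had opposite signs. Csf1 read 5.36, 5.91 and 5.77 in wild type and 6.48, 6.21 and 6.40 in mutants. The log2 difference was 0.68 (SE 0.23, adjusted p = 0.746), with separated groups. Il34, the ligand that keratinocytes make and on which Langerhans cells depend, read 7.45, 7.37 and 7.73 against 6.91, 7.20 and 6.87. All mutant values lay below all wild-type values, and the difference was -0.52 (SE 0.21, adjusted p = 0.791). Under median scaling it was 0.096, where the median of all probes was 0.42. Irf8, a transcription factor of the myeloid lineage, differed by 0.46 (SE 0.22, adjusted p = 0.791), and by -0.074 in the authors' deposited table.

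Partners of Cd14 in sensing lipopolysaccharide and lipoproteins had 13 kept genes of 16, 9 above 0 and 4 below (median 0.31), with 5 separated higher and 2 lower. Tlr2, the receptor of bacterial lipoproteins, read 7.01, 7.12 and 6.91 in wild type and 7.89, 7.89 and 7.90 in mutants. Its groups lay far apart for their spread, with a fold of 1.85 (1.36 to 2.51, adjusted p = 0.346). Irak3, a brake on Toll-like receptor signalling, read 6.59, 6.25 and 5.31 against 7.57, 7.52 and 7.28. The groups were separated, and the log2 difference was 1.41 (SE 0.35, adjusted p = 0.454). Lbp, which hands lipopolysaccharide to Cd14, differed by 0.61 (SE 0.24, adjusted p = 0.791), with separated groups. Over all alternative settings the adjusted p of Tlr2 ran from 0.0481, with array weights, to 0.998, and those of Irak3 and Lbp did not pass. With array weights 0.703% of all probes passed.

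Other macrophage markers had 23 kept genes of 26, with 20 above 0 and 3 below (median 0.41), and 7 separated, all higher. Without wild-type array 3 the median was 0.38, 19 of the 23 were above 0 and 12 were separated, all higher, against 50.1% of genes above 0 and 14.1% separated higher. Coro1a, which encodes an actin-binding protein of leukocytes, read 9.35, 9.37 and 9.70 in wild type and 10.29, 10.44 and 10.45 in mutants. The fold was 1.89 (1.35 to 2.64, adjusted p = 0.384). With array weights Coro1a passed (adjusted p = 0.0297), as did 0.703% of all probes. Its adjusted p ran from 0.0297 to 0.998 over all alternatives. Fcgr2b, the inhibitory Fc receptor, read 6.27, 6.02 and 5.94 against 6.48, 7.12 and 7.10. The groups were separated, with a difference of 0.83 (SE 0.25, adjusted p = 0.649). Laptm5, a lysosomal protein of haematopoietic cells, differed by 0.65 (SE 0.26, adjusted p = 0.791), also with separated groups. Ptprc, the leukocyte common antigen, was detected on no array.

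Scavenger and lectin receptors and lysosomal proteins had 14 kept genes of 20, 10 above 0 and 4 below (median 0.26), with 2 separated in each direction. Clec4n, which encodes the fungal receptor dectin-2, read 5.79, 5.22 and 4.79 in wild type and 6.65, 6.63 and 7.05 in mutants. The difference was 1.51 (SE 0.30, adjusted p = 0.303), with separated groups. Ctsb, a lysosomal cathepsin, differed by 1.18 (SE 0.70), which became 0.30 when wild-type array 3 was left out. Scarf1, a scavenger receptor that binds C1q, differed by -0.61 (SE 0.30), with all mutant values below wild type.

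Of 9 monocyte genes 5 were kept, 4 of them above 0, with a median of 0.36 and 2 separated, both higher. Plac8, expressed by myeloid cells and by some epithelia, differed by 1.26 (SE 0.33, adjusted p = 0.489), Hp by 1.27 (SE 0.51, adjusted p = 0.791) and S100a4 by 0.36 (SE 0.31, adjusted p = 0.793). Ccr2, the receptor that defines inflammatory monocytes, was detected on no array. Of 15 Langerhans and dendritic cell genes 8 were kept, 6 above 0, with a median of 0.31 and 1 separated higher. Cd74, the invariant chain, differed by 0.70 (SE 0.32, adjusted p = 0.791), H2-Aa, a class II chain, by 0.69 (SE 0.40, adjusted p = 0.791) and Cd86, a costimulatory ligand, by 0.49 (SE 0.25, adjusted p = 0.791). Cd207, the gene of langerin, a marker of Langerhans cells, was detected on no array, which does not show whether these cells were present.

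**Figure D4:**
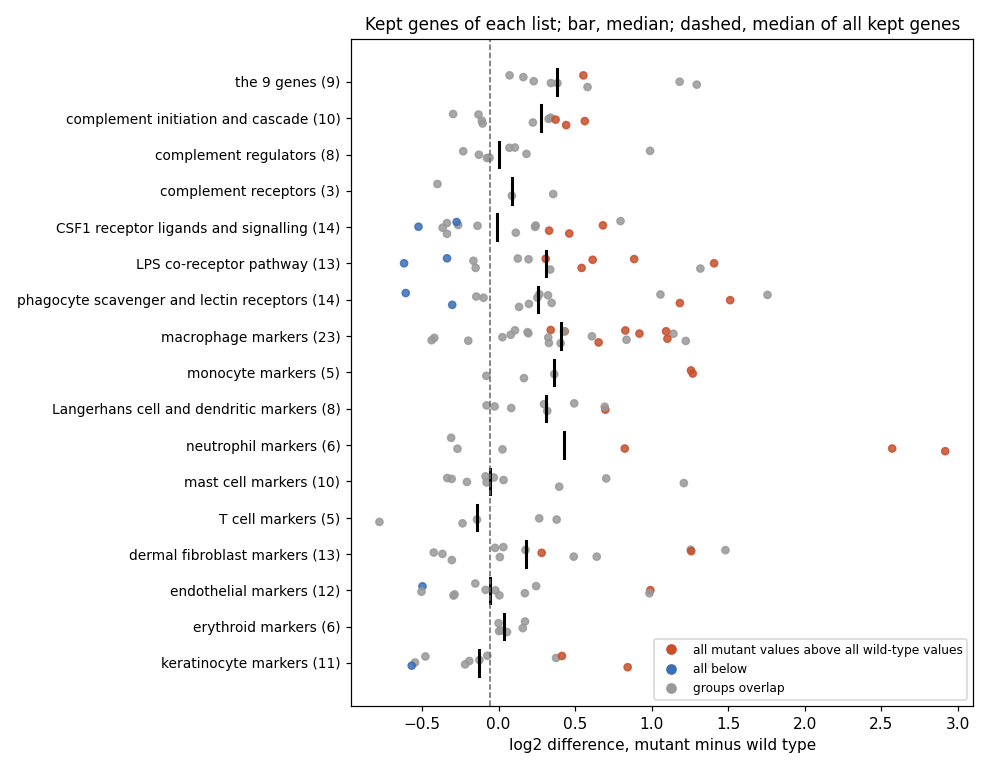
Log2 difference of every kept gene of 17 lists, with the number kept in brackets; red and blue mark genes whose groups do not overlap. The list medians run from -0.14 (T cell markers) to 0.42 (neutrophil markers), and the dashed line at -0.056 is the median of 11354 genes.

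Markers of other cells in the peel were read in the same way, with the mean log2 level of the kept genes given by array. Neutrophil markers kept 6 of 13 genes, 4 above 0, with a median of 0.42 and 3 separated, all higher, at a mean level of 6.07 to 6.38 in wild type and 7.12 to 7.36 in mutants. Part of this list, S100a8 and S100a9, is also made by keratinocytes. Retnlg, separated like these genes, differed by 0.82 (SE 0.25, limma adjusted p = 0.619) and was detected on 1 wild-type and 3 mutant arrays. Ltf (-0.31) and Mmp9 (-0.27) were below 0. Cxcr2, Csf3r, Mmp8 and Ngp, of which Cxcr2 and Csf3r are defining receptors, were detected on no array. Without wild-type array 3 the neutrophil median was 0.87, and 1 gene of the list passed, against 0.275% of all 17808 probes. It was S100a8, named here after its values were seen, which read 9.55, 9.22 and 7.21 in wild type and 11.85, 11.59 and 11.29 in mutants. Its log2 difference was 2.92 (SE 0.59, limma adjusted p = 0.312), and 2.18 (adjusted p = 0.032) without wild-type array 3. It also passed with array weights and with the prefix as a block (adjusted p from 0.00726 to 0.998 over all alternatives). In these settings 0.703% and 0.261% of all probes passed. The interaction with prefix passed for S100a8 (adjusted p = 0.02), at 2.34 in bo20 and 4.08 in bo12. Dermal fibroblast markers kept 13 of 14 genes, 9 above 0 (median 0.18), at 10.01 to 11.10 in wild type and 10.96 to 11.25 in mutants, and wild-type array 3 was the lowest. Without it the dermal median was 0.037. Probes of the same gene disagreed on wild-type array 3. For Lum the dimmer probe read 6.94 there, its lowest value, and the brighter probe 12.80, its highest. For Dcn the brightest probe read 9.14, its lowest value, and another probe 7.03, its highest. Whether the low list level on that array reflects the amount of dermis was not tested. Endothelial markers kept 12 of 12 genes, 5 above 0 (median -0.053), at 7.85 to 8.22 and 7.95 to 8.24. T cell markers kept 5 of 10, 2 above 0 (median -0.14). Cd3d and Cd3g stood at 0.26 and 0.38, and Cd247, Il7r and Thy1 at -0.14, -0.24 and -0.78. Only Thy1 was bright, with a wild-type mean of 11.42, while the others had wild-type means of 4.92 to 5.21. Mast cell markers kept 10 of 10, 4 above 0 (median -0.055), with levels of 9.11 to 9.43 in wild type and 9.41 to 9.46 in mutants. Erythroid markers kept 6 of 12, 5 above 0 (median 0.036). Keratinocyte markers, which check the labelled tissue, kept 11 of 12, 4 above 0 (median -0.13). Their mean level was 10.94 to 11.84 in wild type and 11.43 to 11.71 in mutants. Dermal fibroblast markers were nearly as bright, so the samples also held RNA of dermal genes. The signal of the 9 genes therefore cannot be placed in the epidermis alone. The part of any of these cells in the values of C1q, C3 and the phagocyte genes was not tested.

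**Figure D5:**
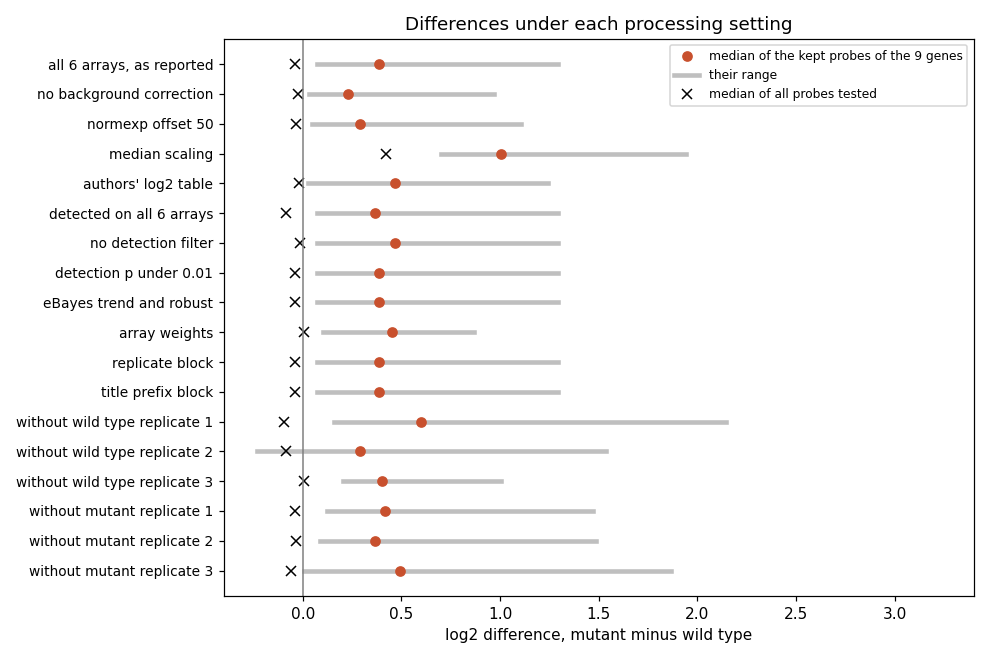
Median (red) and range (grey) of the log2 differences of the kept probes of the 9 genes under the reported setting and 17 alternatives, with the median of all probes tested (crosses). The red median stays between 0.23 and 1.00 and above the cross in each setting, and the only value below 0 is that of C1qa without wild-type array 2.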

How the data were processed

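The deposited raw table holds bead summary intensities for 45281 probes on 6 arrays, without background subtraction or normalization, per the file headers and the values. BeadStudio is named, with no version, per the submitters' processing notes. RNA (500 ng) was amplified and labelled with an Illumina kit, per the labels' protocols. A fraction that the header calls a p-value was deposited with each intensity. It rises with intensity (Spearman's rho at least 0.985), and the detection p was taken as 1 minus this fraction. The authors also deposited log2 values, in which each array is centred on its own 75th percentile and each probe on its median (100% within 0.001 of the values so recomputed). Its column medians, by replicate, were 0.26, -0.014 and 0.33 for wild type and -0.13, -0.13 and 0.013 for mutants. At most 0.517% of raw values were equal between any pair of arrays.

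Intensities were corrected with nec in limma 3.58.1 (offset 16) and quantile-normalized in R 4.3.3. The filter kept a probe if 3 or more arrays gave it a detection p below 0.05. Mutants were compared with wild type by lmFit and eBayes, two-sided, without covariates, with Benjamini-Hochberg adjustment over all kept probes. The precision is limited by the 3 arrays per group, and p-values measure the spread between these arrays. Of the probes, 35784 carried 1 symbol, 0 several and 9497 none, and symbols were updated through Entrez identifiers (28620) or accessions (2637) with the GRCm38.p6 gene table, used for names and gene order. The probe of C3 was named through its accession. A genome build and the positions of probes were not given, per the labels. A gene was represented by its kept probe with the highest mean. A fold against a group in which no array detected the probe is a bound on the mean, taken against the lowest detected signal. Such a bound leaves out the spread between arrays. The procedure was also run on simulated data with independent noise. Their spread was taken without wild-type array 3 and they held no prefix effect, so that run covers neither.

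The reported fit did not pair the arrays, and replicate number was a block only in an alternative. Deviations from the group means correlated at 0.27, 0.462 and 0.538 between same-numbered arrays. Deviations within a group cancel out, so these correlations depend on one another. The labels do not state a pairing. Wild-type array 2 and mutant array 1, which share the prefix bo20, correlated at 0.449 as well, so the values do not single out the replicate numbers.

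The 9 genes and the 16 other lists were chosen with earlier results of these data known. Named list genes are the 3 kept genes with the smallest p in each complement, signalling and myeloid list, and undetected genes are named beside them after their values were seen. Lists of other cell types are given by counts and levels. The neutrophil, dermal and T cell genes named beside them were named after their values were seen. Alternatives covered background correction, scaling, the authors' table, detection filters, the variance model, array weights, blocks for replicate number and title prefix, the mean over a gene's probes, and each array left out in turn.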

Additional observations from a re-analysis of the deposited data

How the results depend on the processing

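Over the 17 alternative settings, 0 kept probes of the 9 genes passed limma's adjusted p of 0.05 in any, and all were above 0 except C1qa (-0.23) without wild-type array 2. Over all probes, 0 passed in the reported fit, 1 without background correction, 6 in the authors' deposited table, 129 when arrays were weighted (wild-type array 3 at 0.112), and 48 when the title prefix was a block. With each array left out in turn, 0 to 49 probes passed, and the 49 were without wild-type array 3. With the replicate number as a block 0 probes passed, 0 of the 11 among them (smallest adjusted p 0.292), and no other call changed. With the title prefix as a block the smallest adjusted p of the 11 was 0.12. Median scaling moved the median of all probes to 0.42, with 88.7% above 0 and 24.1% separated higher. On that scale the 11 probes had a median of 1.00, and 10 of them were separated. Taking the mean of the kept probes of Csf1r or Adgre1 changed no call.

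Signs turned elsewhere in genes that had not passed. Under median scaling Cd59b, Lrp1 and Il34 stood at 0.35, 0.083 and 0.096, each below the median of all probes on that scale (0.42). In the authors' deposited table Masp1, Vtn, Irf8 and S100a4 stood at -0.12, -0.082, -0.074 and -0.068. Cd93 ran from -0.11 to 0.45 with an array left out, and C1qa from -0.23 to 0.29. The interaction of group and prefix passed for 1846 probes as reported, 897 with median scaling, 604 in the authors' deposited table and 1202 without a detection filter. Leaving out arrays was not run for it, since bo12 has 1 array per group. The cause of these changes was not tested. Low signal limits Cd14 and the dimmer Csf1r probe, and Adgre1 on wild-type array 3, which lay closest to background.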
